A study of Homo sapiens with 4 samples.

Results

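The expression of 9 genes was followed in HepG2 cells: NFE2L2, which encodes the transcription factor NRF2, 6 of its reported target genes (NQO1, HMOX1, GCLM, GCLC, TXNRD1 and SRXN1), and PGD and TKT, which encode 2 enzymes of the pentose phosphate pathway. PGD and TKT are also on the hand-written list of reported NRF2 targets used below. All 9 genes were taken by symbol from the deposited read counts and were found among 24462 gene symbols. HepG2 is a human hepatocellular carcinoma line, and the study asked how its cells respond when CDK4 and CDK6, the kinases that drive entry into the cell cycle, are blocked or depleted. The cells had received DMSO (the solvent), PD0332991 (a kinase inhibitor of CDK4 and CDK6, also written PD-0332991), scrambled siRNA, or siRNA oligos against both CDK4 and CDK6 (CDK4/6 KD), with 1 library for each condition. All were grown in RPMI medium with serum. The dose of the inhibitor and the times of treatment of the sequenced cells were not given in the sources used here.

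NRF2 is held at a low level by KEAP1, an adaptor that passes it to a ubiquitin ligase. When electrophiles or oxidants modify KEAP1, or when p62 (SQSTM1) binds it, NRF2 accumulates, pairs with a small MAF protein and binds antioxidant response elements near genes for glutathione synthesis, thioredoxin recycling, quinone and haem breakdown. In the liver these enzymes detoxify drugs and peroxides, and many of them use NADPH, of which the oxidative arm of the pentose phosphate pathway is a main source. The non-oxidative arm of that pathway interconverts sugar phosphates and so links ribose for nucleotides to glycolysis. Much of NRF2's control acts on the protein, which was not measured.

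On GRCh38 (GENCODE 29), NFE2L2 lies on chromosome 2 from 177227595 to 177392697, minus strand. The positions of its target genes were chromosome 16 from 69706996 to 69726951 for NQO1 (minus strand), chromosome 22 from 35380361 to 35394214 for HMOX1 (plus strand), chromosome 1 from 93885205 to 93909456 for GCLM (minus strand) and chromosome 6 from 53497341 to 53616970 for GCLC (minus strand). TXNRD1 lies on chromosome 12 from 104215779 to 104350305 (plus strand) and SRXN1 on chromosome 20 from 646615 to 653370 (minus strand). PGD lies on chromosome 1 from 10398592 to 10420144 (plus strand) and TKT on chromosome 3 from 53224707 to 53256052 (minus strand). The counts carry symbols only, and the submitters' processing notes name hg19, so these positions place the genes and were not used for counting.

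The core of the antioxidant response element, TGACNNNGC, was searched on both strands of the promoter windows of these genes, since this is the sequence through which NRF2 acts on its targets. Each RefSeq window (GRCh38.p14) ran from 250 bases before the start site to 50 after it. Windows were found for 8 of the 9 genes, all but HMOX1, and 10 windows in all. The motif was present in 4 of the 10 windows (40%), both windows of TXNRD1 among them, against 13.3% of 35116 human promoter windows of this length. Its TGAC part also occurs in AP-1 and CREB sites, and a match is a description of letters. The stretches with the motif in capitals are shown for the genes that held it, each in the direction of its gene. On the strand opposite to the gene the motif appears as its reverse complement, as in GCLM (chr1:93909426-93909494, 34 bases before the start site), PGD (chr1:10398833-10398901, 201 bases before) and the inner start of TXNRD1 (chr12:104286900-104286968, 102 bases before). At the outer start of TXNRD1 (chr12:104215650-104215718, 99 bases before) it lies in the direction of the gene.
GCLM: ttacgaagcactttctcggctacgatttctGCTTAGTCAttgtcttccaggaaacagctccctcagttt
TXNRD1, outer start: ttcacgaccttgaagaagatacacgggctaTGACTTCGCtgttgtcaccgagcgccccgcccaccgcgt
TXNRD1, inner start: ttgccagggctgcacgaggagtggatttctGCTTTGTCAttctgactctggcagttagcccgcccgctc
PGD: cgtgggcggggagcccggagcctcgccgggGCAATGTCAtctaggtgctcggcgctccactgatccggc
The outer window of TXNRD1 held a second match 8 bases before the start site. No match was found in the windows of NFE2L2, NQO1, GCLC, SRXN1 and TKT. Sequence outside the windows was not searched, so a window without a match does not show that a gene lacks the element. GCLM, with 1 match, was called lower in both comparisons described next, while NQO1 and SRXN1, with none in these windows, were called lower in CDK4/6 KD.

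The libraries held 8983848 to 11176880 reads from QuantSeq 3′ mRNA sequencing, which reads each transcript next to its poly(A) tail. Levels are given as CPM (reads scaled to library size with TMM factors), and a fold change is the ratio of the CPM of the treated library to that of its control after adding 0.5 reads. Its exact 95% interval (Clopper-Pearson, on how a gene's reads divide between the libraries) covers counting error only and compares libraries, not conditions. There were no replicates, so no test was run. A gene was called higher or lower when its fold change was at least 1.5 in either direction and its whole interval lay on 1 side of 1. Between scrambled siRNA and DMSO, both without CDK4/6 inhibition, 10.9% of 13303 genes were called higher and 13.7% lower by this rule, so differences of this size also separated the control libraries. CDK4 (fold change in CDK4/6 KD: 0.203) and CDK6 (fold change: 0.241) were lower in the CDK4/6 KD library, as its label says. All 18 hepatocyte markers had at least 10 reads in every library, with summed levels of 24159 to 32017 CPM. The levels of 10 proliferation markers summed to 4407 CPM in DMSO, 570 in PD0332991, 3107 in scrambled siRNA and 1395 in CDK4/6 KD. Of 38 keratinocyte markers, 14 had no reads in DMSO, 3 in PD0332991, 8 in scrambled siRNA and 7 in CDK4/6 KD. Their summed level ran from 244 CPM in DMSO to 433 in scrambled siRNA, most of it from SFN and KRT10. Without these 2 it was 44.2 CPM in DMSO, 186 in PD0332991, 80.0 in scrambled siRNA and 80.7 in CDK4/6 KD. After PD0332991 12 of the 17 markers past the filter were called higher, where 13.4% of all genes tested were. Only 5 of the markers had 10 reads in DMSO, against 17 in PD0332991. Most thus passed the filter only through the library where they were high, and this count partly follows from the filter. Among the defining ones KRT5 had 2 to 113 reads, KRT14 9 to 249 and TP63 at most 1, with KRT5 and KRT14 highest in PD0332991. The part of proliferation and of these marker reads in the differences below was not tested, and in bulk RNA fewer cells with a transcript and less of it per cell cannot be told apart.

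All 9 genes had a lower level in CDK4/6 KD than in scrambled siRNA, where 50.3% of the genes tested were below 1, but with total counts alone as the scaling NFE2L2 (log2 fold change: 0.061) and HMOX1 (0.069) were above. SRXN1, NQO1 and GCLM were called lower. In PD0332991 against DMSO, GCLM and HMOX1 were called lower and the pentose phosphate genes PGD and TKT were within counting error of DMSO. No gene of the 9 was called higher in either comparison. The scrambled siRNA library itself had the highest level of the 4 for 6 of the 9 genes (NQO1, GCLM, GCLC, SRXN1, PGD and TKT), and DMSO had the highest for the other 3 (NFE2L2, HMOX1 and TXNRD1), so several of these differences depended on the control, as given gene by gene.

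**Figure D1:**
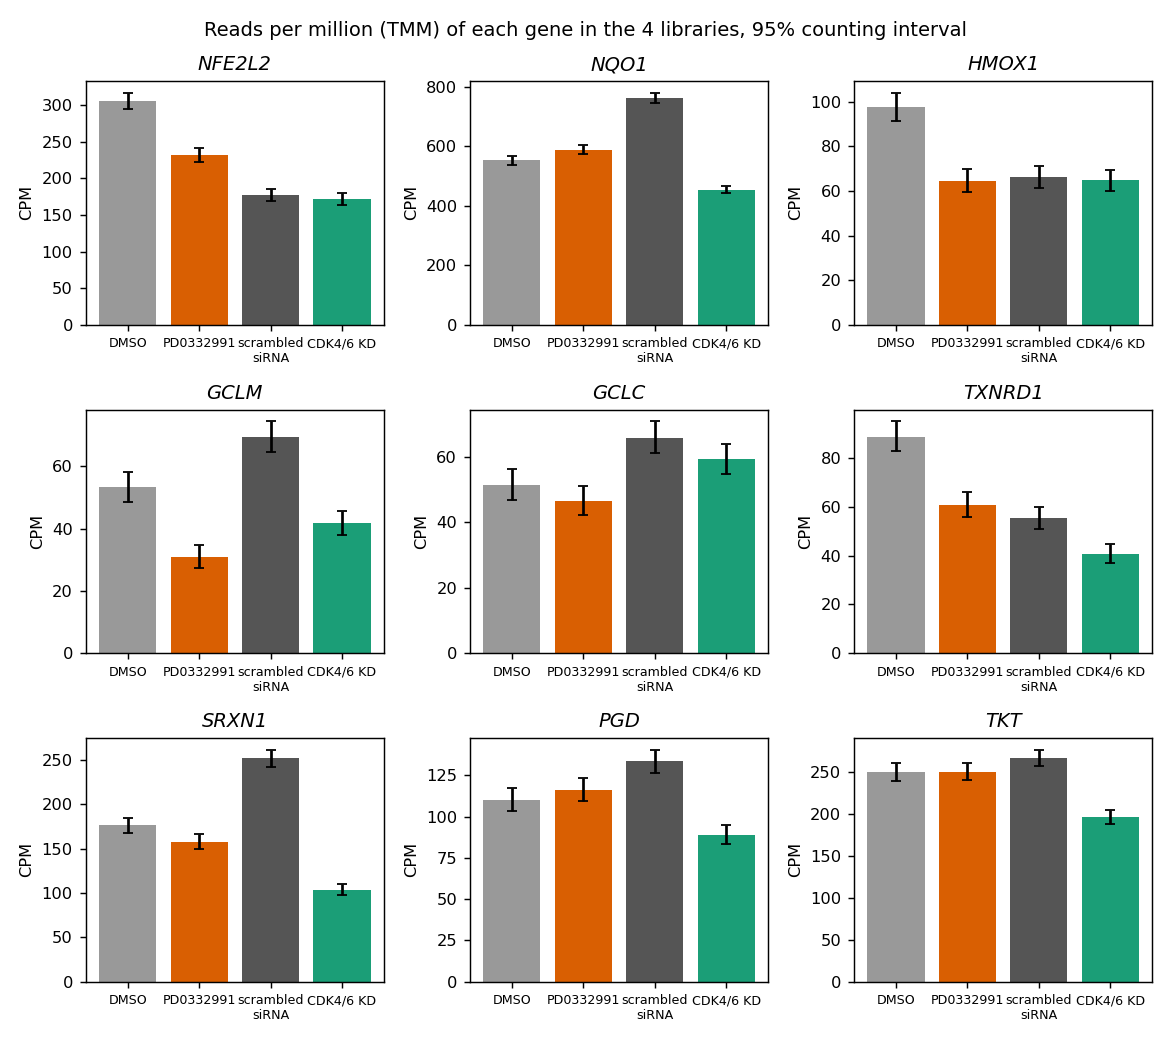
Level of each of the 9 genes in CPM (y axis, from 0) in the 4 libraries (x axis), 1 bar per library, with 95% Poisson counting intervals. NQO1, GCLM, GCLC, SRXN1, PGD and TKT were highest in scrambled siRNA, while NFE2L2, HMOX1 and TXNRD1 were highest in DMSO.

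The expression of NFE2L2 was 305 CPM in DMSO, 231 in PD0332991, 177 in scrambled siRNA and 171 in CDK4/6 KD. Both transfected libraries were low, and they did not differ beyond counting error (fold change of CDK4/6 KD to scrambled siRNA: 0.970, 95% interval 0.910 to 1.03). PD0332991 was below DMSO without reaching the call (fold change: 0.758, 0.716 to 0.803). The scrambled siRNA library was called lower than DMSO (fold change: 0.579, 0.546 to 0.614), a larger difference than either treatment showed against its own control. Thus NRF2's own transcript was lowest in the transfected libraries and did not separate CDK4/6 KD from its control. PD0332991 lay between DMSO and the transfected libraries, at 1.31 times scrambled siRNA (1.23 to 1.39). KEAP1, its inhibitor, varied little, with fold changes of 0.921 (0.828 to 1.02) in CDK4/6 KD and 0.951 (0.842 to 1.07) after PD0332991.

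SRXN1 encodes sulfiredoxin, which repairs overoxidised peroxiredoxins. Its level was 176 CPM in DMSO, 158 in PD0332991, 252 in scrambled siRNA and 104 in CDK4/6 KD, the widest range of the 9 genes (2.43-fold from lowest to highest). CDK4/6 KD was the lowest and scrambled siRNA the highest, and no 2 libraries were within counting error of each other. The fold change in CDK4/6 KD was 0.411 (0.384 to 0.441), and against DMSO as the control it was 0.588 (0.545 to 0.635), so that SRXN1 was called lower with either control. After PD0332991 it was 0.895 (0.832 to 0.961). The last 1000 bases of SRXN1 overlap another coding gene annotated on the same strand, AL121758.1. The extent of the overlap was not measured, and reads of the 2 may not be separable.

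TXNRD1 encodes thioredoxin reductase, which passes electrons from NADPH to thioredoxin. Its level was 88.8 CPM in DMSO, 60.7 in PD0332991, 55.3 in scrambled siRNA and 40.7 in CDK4/6 KD. DMSO stood above the others, and PD0332991 and scrambled siRNA were within counting error of each other. Neither treatment reached the call against its own control (fold change in CDK4/6 KD: 0.736, 0.650 to 0.833; after PD0332991: 0.684, 0.613 to 0.763). Scrambled siRNA was called lower than DMSO (0.624, 0.560 to 0.694), and CDK4/6 KD against DMSO gave 0.459 (0.408 to 0.515).

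GCLM and GCLC encode the modifier and the catalytic subunit of glutamate-cysteine ligase, the first and rate-limiting step of glutathione synthesis. The level of GCLM was 53.3 CPM in DMSO, 31.0 in PD0332991, 69.3 in scrambled siRNA and 41.8 in CDK4/6 KD. Both treated libraries were below both controls. The fold change was 0.603 (0.536 to 0.677) in CDK4/6 KD and 0.582 (0.50 to 0.674) after PD0332991, and GCLM was the only one of the 9 genes called lower in both comparisons. With the controls exchanged, PD0332991 was again called lower (0.447, 0.388 to 0.513), but CDK4/6 KD against DMSO did not reach the call (0.784, 0.689 to 0.892). GCLC behaved otherwise, at 51.2 CPM in DMSO, 46.5 in PD0332991, 65.8 in scrambled siRNA and 59.2 in CDK4/6 KD. Its transfected libraries were the higher ones and each treatment lay within counting error of its own control (fold change in CDK4/6 KD: 0.900, 0.808 to 1.00; after PD0332991: 0.907, 0.793 to 1.04). The 2 subunits of the enzyme were thus unequal in both treatments. GCLM had the fewest reads of the 9 genes, 282 in PD0332991, where its 95% interval was 27.5 to 34.8 CPM.

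NQO1 encodes an NADPH-using quinone reductase and is widely used as a readout of NRF2. It was the most read of the 9 genes (5053 to 8179 reads), at 553 CPM in DMSO, 589 in PD0332991, 764 in scrambled siRNA and 455 in CDK4/6 KD. CDK4/6 KD was the lowest, scrambled siRNA the highest, and the other libraries lay between. The fold change was 0.595 (0.575 to 0.616) in CDK4/6 KD and 1.07 (1.03 to 1.11) after PD0332991. Against DMSO, CDK4/6 KD gave 0.823 (0.791 to 0.855), below 1 but short of the call, and PD0332991 against scrambled siRNA turned below 1 (0.771, 0.745 to 0.798). HMOX1 encodes haem oxygenase 1, which opens the haem ring, and is also under the repressor BACH1. Its level was 97.5 CPM in DMSO, 64.5 in PD0332991, 66.4 in scrambled siRNA and 64.8 in CDK4/6 KD, so that DMSO stood alone and the other 3 libraries were within counting error of each other. It was called lower after PD0332991 (fold change: 0.661, 0.595 to 0.735), not in CDK4/6 KD (0.976, 0.879 to 1.08). The call was lost with total counts alone as the scaling (log2 fold change: -0.579). The scrambled siRNA library was also below DMSO, short of the call (0.681, 0.616 to 0.752), and with it as the control PD0332991 gave 0.972 (0.869 to 1.09).

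PGD encodes 6-phosphogluconate dehydrogenase, an NADPH-producing step of the oxidative arm. Its level was 110 CPM in DMSO, 116 in PD0332991, 134 in scrambled siRNA and 89.0 in CDK4/6 KD. DMSO and PD0332991 were within counting error (fold change: 1.05, 0.966 to 1.15). The fold change in CDK4/6 KD was 0.667 (0.615 to 0.723), just short of the 1.5-fold limit and just past it with DESeq2 size factors (log2 fold change: -0.5852), with which 4 of the 9 genes were called lower. TKT encodes transketolase, which moves carbon pairs between sugars in the non-oxidative arm, and had the narrowest range of the 9 genes (1.36-fold). Its level was 250 CPM in DMSO, 250 in PD0332991, 266 in scrambled siRNA and 196 in CDK4/6 KD. After PD0332991 the fold change was 1.00 (0.944 to 1.06), and in CDK4/6 KD it was 0.737 (0.697 to 0.779). Both pentose phosphate genes were lowest in CDK4/6 KD, also against DMSO (0.807, 0.739 to 0.882, for PGD and 0.786, 0.741 to 0.834, for TKT). PGD has 1 processed pseudogene, PGDP1, which could share its reads.

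**Figure D2:**
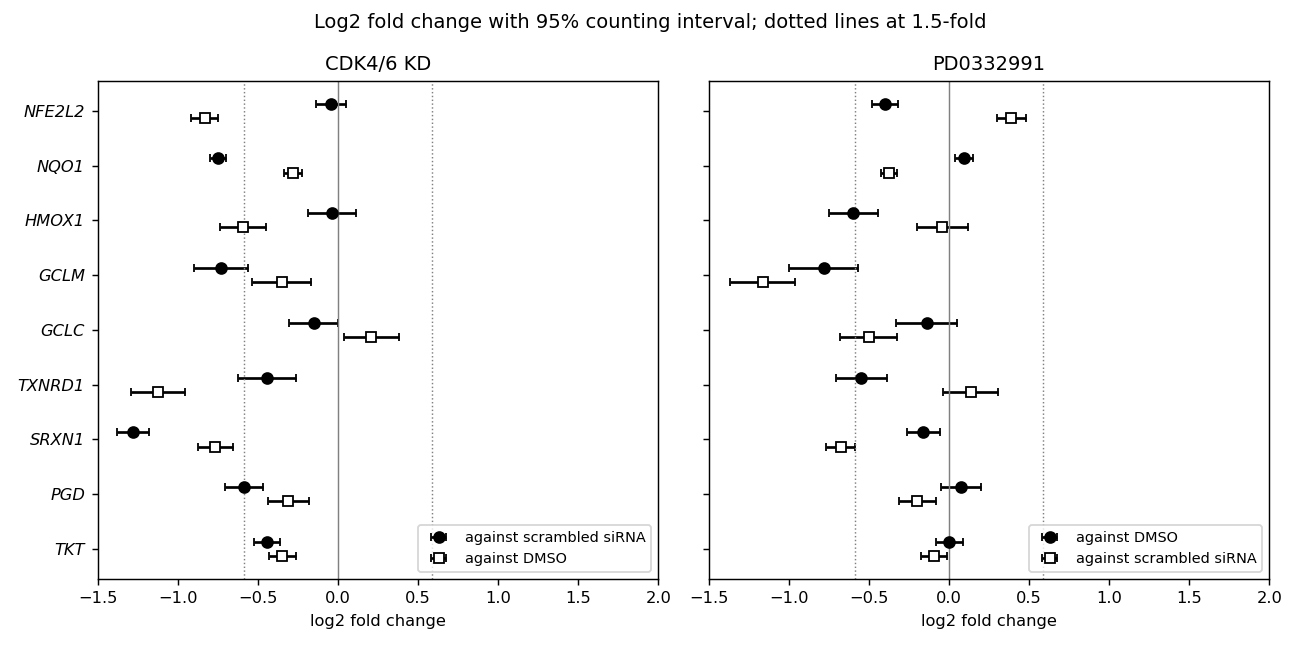
Log2 fold change (x axis) of the 9 genes (y axis) in CDK4/6 KD (left) and after PD0332991 (right), with the library's own control (filled circles) and the control of the other arm (open squares); bars are 95% counting intervals and dotted lines mark 1.5-fold. SRXN1 in CDK4/6 KD and GCLM after PD0332991 were past the limit with both controls.

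Of the 9 genes, 3 were called lower in CDK4/6 KD (33.3%) and 0 higher, where 15.7% of 13617 genes were called lower and 16.5% higher. The median log2 fold change was -0.44, against -0.0036 over all genes tested. After PD0332991, 2 were called lower (22.2%) and 0 higher, where 13.3% of 13443 genes were called lower and 13.4% higher, with a median of -0.16 against 0.018 over all genes. There 6 of the 9 were below 1, where 48.4% of the genes tested were. In scrambled siRNA against DMSO, which shares its libraries with both comparisons, NFE2L2 and TXNRD1 were called lower, 0 were called higher and the median was 0.28 against 0.0088, with 3 of the 9 below 1 where 49.3% of the genes tested were. Scaling by total counts alone moved the share of higher calls in CDK4/6 KD from 51.2% to 61.6% and the median of all genes to 0.10, while the median of the 9 genes was then -0.34. In scrambled siRNA against DMSO it moved that share from 44.4% to 36.4%. With the controls exchanged, 4 genes were called lower in CDK4/6 KD (NFE2L2, HMOX1, TXNRD1 and SRXN1), where 15.7% of all genes were called lower, and SRXN1 alone of them was also called with scrambled siRNA. For PD0332991 they were GCLM and SRXN1, where 16.6% of all genes were called lower, and GCLM was also called with DMSO. With a 2-fold limit 1 of the 9 was lower in CDK4/6 KD (7.06% of all genes) and 0 after PD0332991 (6.62%). With the interval alone and no minimum fold, 6 were lower in CDK4/6 KD (31.9% of all genes), and after PD0332991 5 were lower (28.6%) and 1 higher (28.1%).

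The treatments were also set against each other, as the log2 fold change in CDK4/6 KD minus that after PD0332991, each with its own control. With 1 common control for both, chosen after seeing the data, this becomes the log2 ratio of the treated libraries themselves. SRXN1 (-1.12, -1.26 to -0.98; with a common control -0.60, -0.72 to -0.49), NQO1 (-0.84, -0.92 to -0.77; -0.37, -0.43 to -0.32), PGD (-0.66, -0.83 to -0.49; -0.39, -0.51 to -0.26) and TKT (-0.44, -0.56 to -0.33; -0.35, -0.43 to -0.26) were lower in CDK4/6 KD either way. The direction of NFE2L2 turned (0.36, 0.23 to 0.48; -0.43, -0.52 to -0.34), and the difference of HMOX1 (0.56, 0.35 to 0.77) was gone with a common control (0.0064, -0.15 to 0.17). GCLM (0.052, -0.22 to 0.32), GCLC (-0.012, -0.26 to 0.23) and TXNRD1 (0.11, -0.13 to 0.34) were within counting error with their own controls and outside it with a common one, where GCLM (0.43, 0.22 to 0.65) and GCLC (0.35, 0.17 to 0.53) were higher and TXNRD1 (-0.58, -0.76 to -0.40) lower in CDK4/6 KD.

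The genes most like a member across the 4 libraries were sought among 8154 genes with at least 100 reads in each, by the distance between log2 levels centred on their mean. Nearest to SRXN1 were CINP (0.084), TMEM2 (0.087) and METTL1 (0.097). RPF2 (0.050), C12orf45 (0.061) and HSPA5 (0.074) were nearest to GCLM, and ICK (0.12) and PHF10 (0.13) were near to TXNRD1. None of these neighbours was on the lists of redox genes used here, and 4 libraries give many genes a like profile.

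Other pentose phosphate genes were set beside PGD and TKT by arm of the pathway. In the oxidative arm, H6PD, which acts in the endoplasmic reticulum, stood at 33.8 CPM in DMSO, 72.9 in PD0332991, 33.6 in scrambled siRNA and 37.7 in CDK4/6 KD. PD0332991 stood alone on the high side (fold change: 2.15, 1.88 to 2.48), and CDK4/6 KD was within counting error of its control (1.12, 0.972 to 1.29). PGLS, the lactonase ahead of PGD, stood at 18.5 CPM in DMSO, 36.2 in PD0332991, 19.4 in scrambled siRNA and 33.0 in CDK4/6 KD. Both treated libraries were above both controls, and PGLS was called higher after PD0332991 (1.96, 1.62 to 2.37) and in CDK4/6 KD (1.70, 1.43 to 2.02). H6PD and PGLS were thus called higher after PD0332991, where PGD was level.

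In the non-oxidative arm TALDO1, the transaldolase that works beside TKT, stood at 199 CPM in DMSO, 198 in PD0332991, 240 in scrambled siRNA and 92.1 in CDK4/6 KD. CDK4/6 KD was the lowest by a wide margin (fold change: 0.383, 0.356 to 0.412; against DMSO: 0.463, 0.429 to 0.50), while PD0332991 gave 0.998 (0.935 to 1.07). TKT and TALDO1 were thus level after PD0332991 and lowest in CDK4/6 KD. RPIA, which makes ribose 5-phosphate, was called lower after PD0332991 (0.554, 0.481 to 0.637), and in CDK4/6 KD it gave 0.748 (0.659 to 0.847). PRPS1, which activates ribose for nucleotide synthesis, was called lower in both (0.552, 0.476 to 0.639, in CDK4/6 KD and 0.649, 0.549 to 0.766, after PD0332991), and its paralog PRPS2 after PD0332991 (0.299, 0.211 to 0.413). Besides TKT, 5 genes of this list passed the read filter. Of these, 2 were called lower in CDK4/6 KD and 3 after PD0332991, with 0 higher. Of all genes tested, 15.7% were called lower in CDK4/6 KD and 13.3% after PD0332991. The list counts PRPS1 and PRPS2, which lie outside the arm itself. RPE, a further gene of the arm, was called in neither comparison. It stood at 46.4 CPM in DMSO, 37.8 in PD0332991, 39.5 in scrambled siRNA and 47.2 in CDK4/6 KD.

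**Figure D3:**
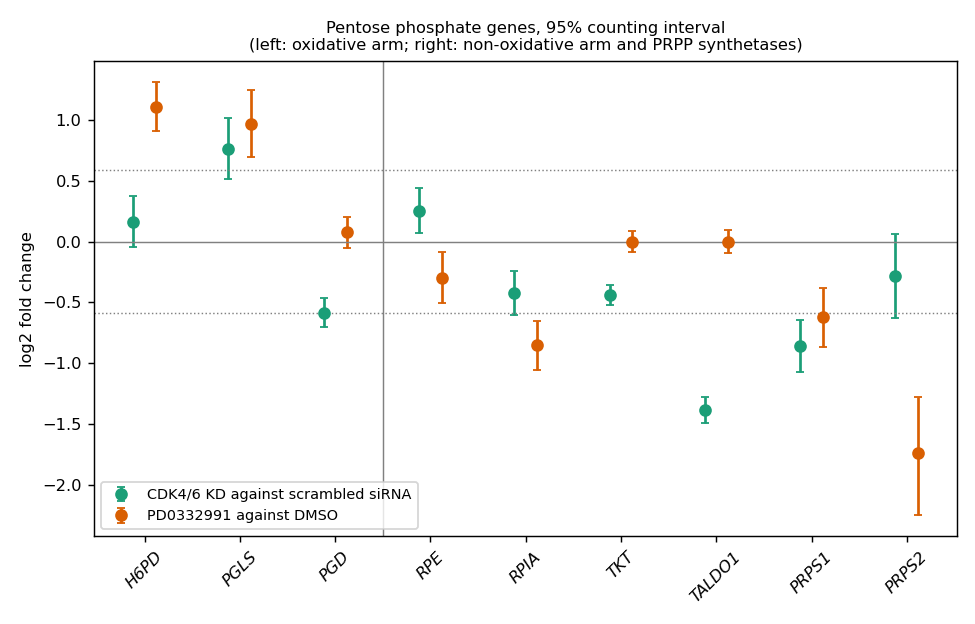
Log2 fold change (y axis) of pentose phosphate genes (x axis) in CDK4/6 KD and after PD0332991, each against its own control, with 95% counting intervals and dotted lines at 1.5-fold. After PD0332991 H6PD and PGLS lay above the upper line and PGD and TKT near 0, while PGD, TKT and TALDO1 were below 0 in CDK4/6 KD.

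Other NADPH sources were called higher for 4 of 8 genes in CDK4/6 KD and lower for 1, where 16.5% and 15.7% of all genes were. IDH2, mitochondrial isocitrate dehydrogenase, gave 1.68 (1.57 to 1.80), NNT, the mitochondrial transhydrogenase, 1.52 (1.22 to 1.89) and ALDH1L1, a folate enzyme, 2.20 (1.61 to 3.08). Against DMSO the call of IDH2 held (1.78, 1.66 to 1.91), ALDH1L1 was short of the call (1.34, 1.00 to 1.79) and NNT turned below 1 (0.849, 0.701 to 1.03). MTHFD1, the cytosolic folate enzyme, was called lower in CDK4/6 KD (0.415, 0.375 to 0.458) and after PD0332991 (0.435, 0.390 to 0.483). ALDH1L2, the mitochondrial relative of ALDH1L1, was also called higher in CDK4/6 KD, at 6.27 CPM against 3.83 in scrambled siRNA. It was the 1 gene of this list called higher after PD0332991, where 13.4% of all genes were. Its fold change there was 5.59 (2.95 to 12.8), from only 10 reads in DMSO, and 1.65 (1.10 to 2.54) against scrambled siRNA.

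Among 13 further genes that control NRF2, 2 were called higher in CDK4/6 KD and 3 lower, against 0 higher and 1 lower after PD0332991. With the controls exchanged these counts were 0 and 2 in CDK4/6 KD and 0 and 3 after PD0332991. SQSTM1, whose protein p62 draws KEAP1 away and which is itself an NRF2 target, stood at 255 CPM in DMSO, 342 in PD0332991, 698 in scrambled siRNA and 290 in CDK4/6 KD. The scrambled siRNA library stood far above the rest (2.74 times DMSO, 2.61 to 2.87), so the fold change of 0.416 (0.399 to 0.433) in CDK4/6 KD became 1.14 (1.08 to 1.20) against DMSO. DPP3, another KEAP1 binder, was called lower in CDK4/6 KD (0.543, 0.475 to 0.618), as was MAFG, a small MAF partner (0.612, 0.559 to 0.670). BACH1, the repressor of HMOX1, was called higher there (1.55, 1.21 to 2.00), with HMOX1 level, but not against DMSO (1.22, 0.958 to 1.56). NFE2L3, a relative of NRF2, was called higher in CDK4/6 KD (1.51, 1.22 to 1.86) and lower after PD0332991 (0.485, 0.382 to 0.610). With the controls exchanged neither call held, CDK4/6 KD turned below 1 (0.836, 0.694 to 1.01) and PD0332991 gave 0.874 (0.676 to 1.13).

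Among genes of glutathione synthesis besides GCLM and GCLC, 3 of 11 were called higher in CDK4/6 KD (27.3%) and 0 lower. After PD0332991, 4 of 10 were called higher (40%) and 1 lower (10%). The shares over all genes were 16.5% and 15.7% in CDK4/6 KD, and 13.4% and 13.3% after PD0332991. For this list the exchanged controls gave 4 higher, 2 lower for CDK4/6 KD, then 2 higher, 2 lower for PD0332991. CBS and CTH, which turn homocysteine into cysteine, were called higher in both. CTH gave 2.97 (2.39 to 3.74) in CDK4/6 KD and 2.82 (2.17 to 3.72) after PD0332991, and CBS 1.93 (1.78 to 2.10) and 1.99 (1.81 to 2.19). SLC7A11, the cystine importer and a reported NRF2 target, stood at 54.0 CPM in DMSO against 178 in PD0332991, 163 in scrambled siRNA and 167 in CDK4/6 KD. DMSO stood alone, so SLC7A11 was called higher after PD0332991 (3.30, 2.98 to 3.66) and in scrambled siRNA against DMSO (3.02, 2.73 to 3.34), and not in CDK4/6 KD (1.02, 0.959 to 1.09). GGCT, which breaks down gamma-glutamyl peptides, was called lower after PD0332991 (0.547, 0.497 to 0.602). CHAC1, which degrades glutathione, had 0 reads in DMSO, 9 in PD0332991, 7 in scrambled siRNA and, in CDK4/6 KD, 50, where the fold change was 6.38 (3.05 to 17.7). GCLM was thus called lower in both treatments with their own controls, while CBS and CTH were called higher in both with either control.

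Among 26 glutathione peroxidases, transferases and related enzymes, 8 were called higher in CDK4/6 KD (30.8%) and 4 lower (15.4%). After PD0332991, 5 were called higher (19.2%) and 3 lower (11.5%). The shares over all genes were again 16.5% and 15.7%, then 13.4% and 13.3%. Exchanging the controls made the counts of this list 4 higher, 4 lower for CDK4/6 KD, then 12 higher, 4 lower for PD0332991. Of the genes named here, GLRX, GSTZ1, HAGH and GPX7 lost their calls in CDK4/6 KD against DMSO, and GSTZ1 and GLO1 theirs after PD0332991 with scrambled siRNA, where GLO1 turned to 1.02 (0.929 to 1.13). GLRX, a glutaredoxin, was called lower in CDK4/6 KD (0.506, 0.454 to 0.563), as were GSTO2 (0.238, 0.149 to 0.357) and GSTZ1 (0.549, 0.472 to 0.636). GSTZ1 was called higher after PD0332991 (2.25, 1.93 to 2.63), and HAGH, a glyoxalase, in both (1.78, 1.62 to 1.97, in CDK4/6 KD and 1.76, 1.60 to 1.94, after PD0332991). GLO1, which works ahead of HAGH, and MGST1, a membrane transferase, were called lower after PD0332991 (0.635, 0.580 to 0.694, and 0.636, 0.593 to 0.681). GSTA1 and GSTA2 were called higher in CDK4/6 KD but are near-identical copies, whose reads may be split between them. GPX7 (2.28, 1.76 to 3.01) was also called higher there, and GSTP1 (3.13, 2.00 to 5.19) after PD0332991 from 25 reads in DMSO. GSR, which regenerates glutathione with NADPH, was not called (0.811, 0.749 to 0.878, and 0.702, 0.650 to 0.756).

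Of 15 thioredoxin and peroxiredoxin genes besides TXNRD1 and SRXN1, 1 was called higher and 0 lower in CDK4/6 KD. Of all genes tested, 16.5% were called higher there and 15.7% lower, and SRXN1 was alone on this list in its call. In CDK4/6 KD 1 gene was thus called higher. The gene called higher was MSRB3, a methionine sulfoxide reductase (2.00, 1.56 to 2.59), and it was short of the call against DMSO (1.26, 1.01 to 1.59). After PD0332991, TXN, the thioredoxin that TXNRD1 reduces, was called lower (0.611, 0.573 to 0.650). TXN stood at 284 CPM in DMSO, 174 in PD0332991, 174 in scrambled siRNA and 208 in CDK4/6 KD, again with DMSO alone on the high side. PRDX3, the mitochondrial peroxiredoxin, was called lower (0.610, 0.558 to 0.667), and PRDX5 (1.55, 1.43 to 1.67) and MSRB2 (2.15, 1.91 to 2.42) higher. With scrambled siRNA as the control, only MSRB2 of these 4 kept its call (1.52, 1.37 to 1.68), TXN gave 0.998 (0.933 to 1.07), PRDX5 1.20 (1.12 to 1.29), and PRDX3 turned to 1.04 (0.941 to 1.14). Of 3 genes of superoxide and peroxide removal, SOD2, the mitochondrial dismutase, was called lower in CDK4/6 KD (0.538, 0.492 to 0.588) and 0 were called after PD0332991.

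Besides NQO1, 20 genes of quinone and carbonyl detoxification passed the filter. Of these, 4 were called higher in CDK4/6 KD (20%) and 4 lower (20%), against 5 higher (25%) and 1 lower (5%) after PD0332991. Over all genes tested the shares were 16.5% and 15.7%, then 13.4% and 13.3%. Under exchanged controls this list had 2 higher, 2 lower for CDK4/6 KD, then 4 higher, 4 lower for PD0332991. AKR1B10, an aldo-keto reductase, stood at 44.2 CPM in DMSO, 39.5 in PD0332991, 82.2 in scrambled siRNA and 36.2 in CDK4/6 KD. UGDH, which makes UDP-glucuronate, stood at 923, 672, 928 and 535 CPM in the same order. AKR1B10 was called lower in CDK4/6 KD (0.441, 0.391 to 0.496), as was UGDH (0.577, 0.559 to 0.596). EPHX1, an epoxide hydrolase (1.71, 1.48 to 1.99), and ALDH3A1 (3.21, 2.06 to 5.30) were called higher, as was AKR1C2 (1.52, 1.42 to 1.64), which may share reads with its close paralogs. Against DMSO the calls of UGDH (0.580, 0.561 to 0.600) and ALDH3A1 (3.79, 2.30 to 6.81) held, AKR1B10 (0.819, 0.712 to 0.942) and EPHX1 (1.31, 1.14 to 1.52) were short of the call, and AKR1C2 turned below 1 (0.667, 0.628 to 0.708). After PD0332991, ABCC3, an exporter of conjugates (2.14, 1.92 to 2.40), CBR1, a carbonyl reductase (1.61, 1.41 to 1.85), and AKR1A1 (1.52, 1.37 to 1.68) were called higher and AKR1B1 lower (0.619, 0.558 to 0.685). Against scrambled siRNA only ABCC3 kept its call (1.72, 1.56 to 1.90), and CBR1 turned below 1 (0.925, 0.825 to 1.04). Besides HMOX1, 0 of 8 genes of haem breakdown and ferritin were called in either treatment. In scrambled siRNA against DMSO 4 of 8 were called higher, where 10.9% of all genes were. Of these 8, 7 were below 0 in CDK4/6 KD (median log2 fold change: -0.13), where 50.3% of all genes tested were. HMOX1 was below too, within counting error. Against DMSO the median of the 8 turned to 0.26, with 1 called higher and 1 lower. PD0332991 against scrambled siRNA gave 0 higher and 1 lower, with a median of -0.22.

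**Figure D4:**
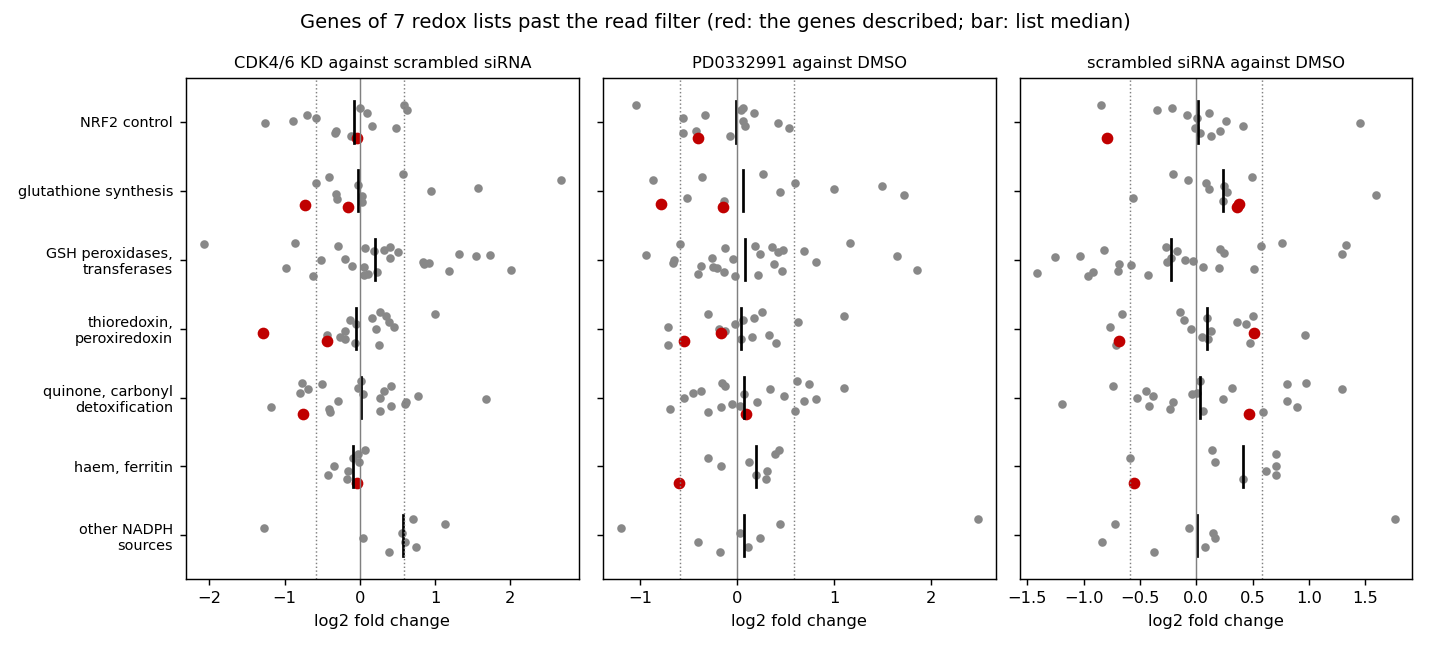
Log2 fold change (x axis) of genes in 7 redox lists (y axis), for CDK4/6 KD against scrambled siRNA, PD0332991 against DMSO and scrambled siRNA against DMSO. Points are genes, red for the 7 of the 9 genes that fall on these lists, bars are list medians and dotted lines mark 1.5-fold. In CDK4/6 KD the red points lie below 0, as do 7 of the other 8 genes of haem breakdown and ferritin. Of the other NADPH sources 7 of 8 lie above 0 there (median: 0.58), and the remaining lists spread to both sides.

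Of 28 further reported NRF2 targets past the filter, 3 were called higher (10.7%) and 7 lower (25%) in CDK4/6 KD, with a median log2 fold change of -0.18. Over all genes tested there, 16.5% were called higher and 15.7% lower, with a median of -0.0036. After PD0332991, 6 of the 28 were called higher (21.4%) and 2 lower (7.14%), with a median of 0.10. The values over all genes were 13.4%, 13.3% and 0.018. In scrambled siRNA against DMSO 10 of the 28 were called higher (35.7%) and 2 lower (7.14%), with a median of 0.15. There the values over all genes were 10.9%, 13.7% and 0.0088. Exchanged controls gave 3 higher, 4 lower for CDK4/6 KD and the median turned to 0.032, and 4 were higher and 6 lower after PD0332991 with a median of -0.051. Calls went in both directions in each comparison. The list was written by hand from general knowledge of NRF2. Some of its genes, TALDO1, SQSTM1 and SLC7A11 among them, were already given above with other lists, so the counts overlap.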

How the data were processed

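RNA was sequenced by QuantSeq 3′ mRNA sequencing of 500 ng total RNA, with single-end reads of 75 bases. For each of 4 libraries the authors deposited unnormalized counts of reads on gene symbols. The submitters' processing notes name Bowtie2, edgeR and hg19, without versions or roles. The counter, the annotation and the use of strand were not given in the sources used here, and the methods name no molecular identifiers, so PCR copies count as reads.

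Each table held 25737 entries, and counts of the 286 repeated symbols were summed. TMM factors (edgeR 4.0.16, R 4.3.3) lay between 0.957 and 1.03. A pseudocount of 0.5 reads was added, genes needed 10 reads in 1 of the libraries compared, and intervals used scipy 1.17.1. As each condition had 1 library, edgeR's test across genes was not possible and there are no p-values. The procedure was tested on simulated counts that held counting error only, so that test does not cover variation between libraries of 1 condition. The alternatives were DESeq2 1.42.0 size factors, total counts alone, a pseudocount of 5 reads, no filter, a filter of 50 reads, a 2-fold call, no minimum fold, only the entry with most reads for a repeated symbol, and the control of the other arm. For the lists of related genes and for the difference between the treatments, exchanged or common controls were added after seeing the data.

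All 9 genes were described in full. From each list of related genes up to 3 called genes per direction and comparison were named, by the interval end farthest from 1, and TALDO1, KEAP1, SLC7A11 and GSR always. Some genes that this rule or the likeness search named are not reported here. The genes and lists were chosen with earlier results of these data known. Gene positions come from GENCODE 29 (GRCh38) and promoters from RefSeq (GRCh38.p14).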

Additional observations from a re-analysis of the deposited data

Results flagged for a closer look

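NQO1 was set apart because its difference went opposite ways in the treatments. Its log2 fold change was -0.75 in CDK4/6 KD and 0.092 after PD0332991, each interval lying on its own side of 0. With 1 library per condition the difference itself was not tested, and with DMSO as the control CDK4/6 KD gave a smaller difference in the same direction (fold change: 0.823), while PD0332991 against scrambled siRNA turned below 1 (fold change: 0.771). The cause was not tested.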

How the results depend on the processing

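The median over the 9 genes stayed below 0 in both treatments under each scaling, pseudocount, filter and control tried. In CDK4/6 KD it moved from -0.44 to -0.34 with total counts alone and to -0.35 with the control of the other arm. With no minimum fold 6 genes were called lower in CDK4/6 KD, with a 2-fold call 1 and with DESeq2 size factors 4, PGD being added. After PD0332991, 1 gene was called lower with total counts alone (GCLM, with HMOX1 lost), 0 with a 2-fold call and 5 with no minimum fold, where 1 was also called higher. Of 27 single values (9 genes in 3 comparisons), 2 changed sign with total counts alone (NFE2L2 and HMOX1 in CDK4/6 KD) and 1 with DESeq2 size factors (TKT after PD0332991), and of 18 values 6 changed sign with the control of the other arm. With 1 common control for both treatments, chosen after seeing the data, the difference of NFE2L2 turned to -0.43. No sign changed with a pseudocount of 5 reads, either filter or the most counted entry of a symbol. No paired analysis was possible because each condition had 1 library, which also allowed no library to be left out. Depth limited GCLM and GCLC most, with 282 to 742 reads per library.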
